A study of Mus musculus with 8 samples.

Results

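The 8 genes Tcf7, Lef1, Myb, Bcl6, Bach2, Satb1, Foxo1 and Foxp1, whose transcription factors are known from stem-like, memory and naive T cells, were compared between Carm1-edited and control OT-I CD8 T cells. They were chosen as a list of factor genes and found by matching the gene identifiers of the count tables to mouse symbols. All 8 were among the 49315 genes counted, each under 1 identifier, and all 8 were among the 14970 genes with enough counts to test. Such factors are known to hold CD8 T cells in a quiescent, long-lived state from which effector cells can still be made. TCF1, the product of Tcf7, and its partner LEF1 mark that state, and FOXO1, MYB, BACH2 and BCL6 are known to favour it over terminal effector differentiation. Several of these proteins are also controlled after transcription, as FOXO1 is by phosphorylation that moves it out of the nucleus, so an RNA level is not a measure of their activity.

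OT-I cells are mouse CD8 T cells whose transgenic receptor sees an ovalbumin peptide, and those used here carried the CD45.1 marker allele. There were 4 libraries of cells nucleofected with a CRISPR RNA against Carm1, which encodes an arginine methyltransferase and transcriptional coactivator, and 4 of cells nucleofected with one against the bacterial gene LacZ. Both arms began as naive CD8 T cells of OT-I spleens and inguinal lymph nodes, kept in medium with interleukin-7 (2.5 ng/ml) and with interleukin-15 (50 ng/ml), and RNA was taken 7 days after editing. The series text says instead that both arms were co-cultured with B16F10 melanoma cells carrying ovalbumin. The 4 libraries of an arm are called technical replicates, and the number of mice or cultures is not given. All p-values below therefore measure only the spread between these libraries, and an effect of the edit and one of anything else that set the 2 cell preparations apart cannot be told apart.

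Libraries held 37556330 to 39988442 counts in the Carm1-edited arm and 38768760 to 41439998 in the control arm. Levels are counts scaled to a common total with TMM factors (CPM), given as mean ± SD of 4 libraries. Log2 fold changes (Carm1-edited minus control) carry their standard error (SE) and come from edgeR's quasi-likelihood test with Benjamini-Hochberg adjustment over all tested genes and a threshold of 0.05. Carm1 itself had 32.8 CPM in Carm1-edited and 95.9 CPM in control libraries, a log2 fold change of -1.55 ± 0.027 (edgeR, adjusted p = 1.6e-37), and the authors tested loss of its protein by western blot, per the labels. Most of the transcriptome differed: 87.7% of tested genes passed, 44.5% higher and 43.2% lower. The T cell marker genes summed to 6837 to 7052 CPM in Carm1-edited and 4975 to 5088 CPM in control libraries, and 7 of 9 were called higher. Myeloid marker genes summed to 3.65 to 5.66 CPM in Carm1-edited and 150 to 155 CPM in control libraries, with all 8 lower, and Lyz2, which encodes lysozyme, at 0.148 against 83.1 CPM. Progenitor markers summed to 10.2 to 11.4 against 22.1 to 23.7 CPM and natural killer markers to 2.07 to 3.34 against 4.64 to 5.60 CPM. B cell markers went the other way, at 19.5 to 20.8 against 6.96 to 7.47 CPM, most of it Cd79b, with Ms4a1 and Pax5 below 1 CPM in both arms. Helper T cell markers summed to 5.70 to 6.70 against 3.70 to 4.56 CPM. Of 6 melanoma markers, Tyr, Dct, Tyrp1 and Sox10 were at 0 in all 8 libraries and nearly all of the sum, 11.8 to 13.0 against 3.24 to 3.58 CPM, was Pmel. These values move with every result below, and their part in those results was not tested. In bulk RNA, more cells of a type and more RNA per cell cannot be told apart.

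Of the 8 factor genes, 6 were called higher in Carm1-edited libraries, 1 was called lower and 1 was not called. Over all tested genes, 44.5% were called higher and 43.2% lower. Only the share called in either direction was near that of all tested genes (87.7%). Bcl6 (24.6-fold), Myb (17.3-fold) and Tcf7 (4.31-fold) stood far above the other 5, whose changes were all below 2-fold. At least a 4-fold rise was called for 8.84% of tested genes, at least a 2-fold rise for 20.5% and at least a 2-fold fall for 15.2%. Foxo1 was 1.76-fold and Lef1 1.63-fold higher, Bach2 was 1.06-fold higher, Satb1 was 1.15-fold lower and Foxp1 was not called. The median log2 fold change of the 8 was 0.76, against 0.02 over all tested genes. Of their 13 family relatives, 9 could be tested, of which 5 were called higher and 3 lower, beside 44.5% and 43.2% of all tested genes. The median log2 fold change of these relatives was 0.17. With T cell marker scaling, described below, 0 of them were higher and 7 lower. In 5 of the 8 factor genes every Carm1-edited library lay above every control library, in Satb1 every one lay below, and in Bach2 and Foxp1 the libraries overlapped, while 83.4% of tested genes did not overlap, 42.2% higher and 41.2% lower.

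**Figure D1:**
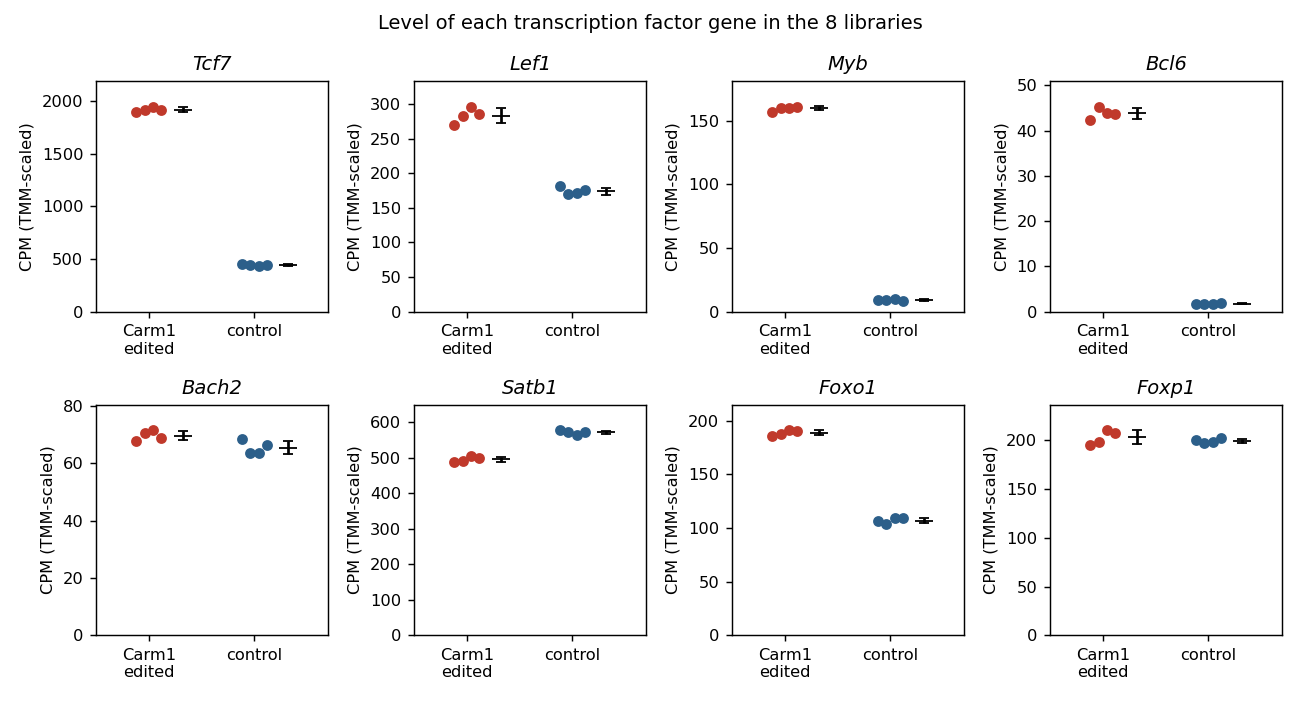
CPM (y axes, from 0, each gene on its own scale) of the 8 factor genes in 4 Carm1-edited (red) and 4 control (blue) libraries, 1 point per library, with the mean ± SD in black. Tcf7, Lef1, Myb, Bcl6 and Foxo1 have every Carm1-edited point above every control point, Satb1 has every one below, and Bach2 and Foxp1 overlap.

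The scaling between libraries moves the fold changes of all genes together. The median over all tested genes shifted by 0.22 on the log2 scale with upper-quartile factors, by 0.16 with library totals alone, and by -0.47 when libraries were scaled to their summed T cell markers, an alternative added after the data were seen. Those markers were mostly called higher themselves. A filter of 5 CPM in 4 libraries had TMM factors computed again on the genes kept. It shifted log2 fold changes by a median of 0.09. Of the genes called, 50.8% were higher with TMM factors, 61% with upper-quartile factors and 31.9% with T cell marker scaling. The rises of Bcl6, Myb, Tcf7, Foxo1 and Lef1 passed under each of these scalings. Bach2, Foxp1 and Satb1 lay within the range that the scaling covers, and their directions are given below with each scaling.

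**Figure D2:**
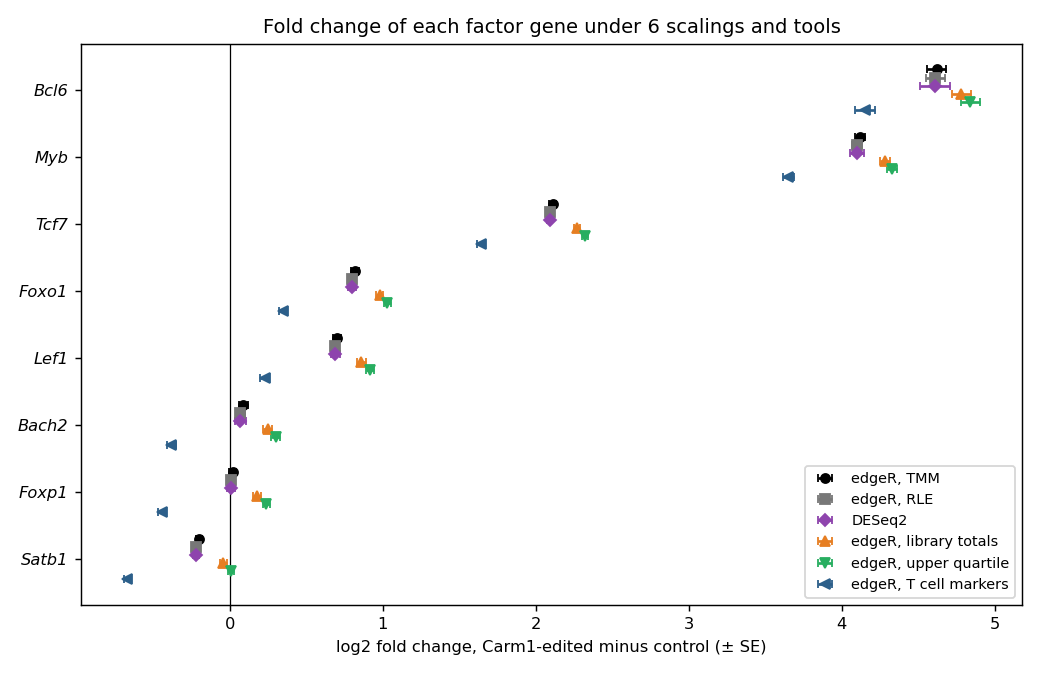
Log2 fold change, Carm1-edited minus control (x axis, ± SE), of the 8 factor genes (rows) under 6 scalings or tools (symbols). Bcl6, Myb, Tcf7, Foxo1 and Lef1 lie right of 0 under all 6, while Bach2, Foxp1 and Satb1 have values on both sides of 0.

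Per length, the 8 genes kept a wide range of levels. In Carm1-edited libraries the order, in CPM per kb of annotated exon, was Tcf7 (731 ± 7.94), Lef1 (32.3), Satb1 (26.1), Foxo1 (21.8), Myb (17.9), Foxp1 (14.7), Bach2 (7.00) and Bcl6 (6.54). In control libraries it was Tcf7 (170 ± 2.41), Satb1 (30.0), Lef1 (19.8), Foxp1 (14.5), Foxo1 (12.3), Bach2 (6.58), Myb (1.03) and Bcl6 (0.266). No neighbours in either order overlapped between libraries, including Bach2, at 6.80 to 7.18 CPM per kb, and Bcl6, at 6.32 to 6.76, in the Carm1-edited libraries. Bcl6 was the least abundant of the 8 per kb in both arms despite its 24.6-fold rise, and Myb moved past Bach2 and Foxp1. The length used is that of all annotated exons of a gene, from 2625 bases in Tcf7 to 19027 in Satb1, so genes with unused exons are understated.

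Tcf7 (ENSMUSG00000000782, mm10 chr11:52252371-52283014, minus strand) encodes TCF1, the high-mobility-group DNA-binding factor that defines stem-like CD8 T cells. It had 1897, 1920, 1947 and 1917 CPM in the Carm1-edited libraries, against 451, 447, 436 and 448 CPM in the control libraries. The groups did not overlap, and their distance was many times the spread within either. The log2 fold change was 2.11 ± 0.021 (edgeR, adjusted p = 4.8e-46), and 1198 of the 14970 tested genes had a larger one. It lay between 1.64 and 2.32 under the alternatives. All 8 genes had RefSeq promoter windows, 19 in all. The 1st window of Tcf7 (chr11:52282965-52283264), at the outer end of the gene, held none of the motifs searched. The 2nd (GRCm38.p6, chr11:52282546-52282845, minus strand, 250 bases before to 50 after an annotated start) lies inside the gene. It is shown because Tcf7 is one of the 3 largest rises and this window held a match. In capitals is the forkhead motif GTAAACA, which FOXO and other forkhead factors can bind, on the strand of the gene and 1 base after the start.
Tcf7 window: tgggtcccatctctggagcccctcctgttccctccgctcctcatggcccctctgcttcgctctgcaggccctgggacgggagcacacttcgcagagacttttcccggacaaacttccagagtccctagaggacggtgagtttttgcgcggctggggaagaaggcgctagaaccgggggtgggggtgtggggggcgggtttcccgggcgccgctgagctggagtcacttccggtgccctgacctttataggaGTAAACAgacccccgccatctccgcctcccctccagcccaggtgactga
GTAAACA on either strand was in 2 of the 19 windows of the 8 genes and in 3.65% of the 32851 RefSeq windows. A match in a window is therefore a description of these letters only.

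Lef1 (ENSMUSG00000027985, chr3:131110471-131224356, plus strand) encodes LEF1, the closest partner of TCF1 in T cells. It had 270, 282, 296 and 285 CPM in the Carm1-edited libraries, against 181, 170, 171 and 175 CPM in the control libraries. All 4 edited libraries were above all 4 controls, by far less than for Tcf7. The log2 fold change was 0.70 ± 0.025 (edgeR, adjusted p = 8.5e-25), from 0.23 to 0.92 under the alternatives. Within each library, where scaling between libraries plays no part, Tcf7 gained on Lef1. The log2 ratio of their counts per kb was 4.50 ± 0.039 in Carm1-edited and 3.10 ± 0.031 in control libraries, a difference of 1.41. An exact two-sided permutation test gave p = 0.0286, the smallest that 4 against 4 libraries allow, and 0.0327 adjusted over the 16 within-library measures examined.

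The other TCF/LEF genes were low and did not follow Tcf7. Tcf7l1 had 0.931 ± 0.120 CPM in Carm1-edited and 2.33 ± 0.340 CPM in control libraries and was called lower by 2.50-fold (edgeR, adjusted p = 1.0e-10). Tcf7l2 had 0.501 ± 0.113 CPM in Carm1-edited and 0.695 ± 0.0522 CPM in control libraries, with overlapping libraries. It was called lower with TMM factors (edgeR, adjusted p = 0.043). That call was lost with library totals (edgeR, adjusted p = 0.18), upper-quartile factors (0.27), no filter (0.063) and a replicate block (0.058), and with DESeq2 (adjusted p = 0.097). It was also lost without Carm1-edited replicate 2, 3 or 4 or control replicate 2 or 4 (edgeR, adjusted p = 0.064 to 0.11). The log2 fold change of Tcf7l2 stayed below 0, from -0.93 to -0.25 under the alternatives. Tcf7 held 95.7 ± 0.11% of the family's summed counts per kb in Carm1-edited libraries and 89.2 ± 0.22% in control libraries, and Lef1 held 4.22 ± 0.11% and 10.4 ± 0.20% (exact permutation p = 0.0286 for each, 0.0327 adjusted over the 16 measures). Without division by length the shares differed by 15.6 and -15.1 percentage points in place of 6.53 and -6.21. Within the family, the share of Lef1 was thus lower although its level was higher.

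**Figure D3:**
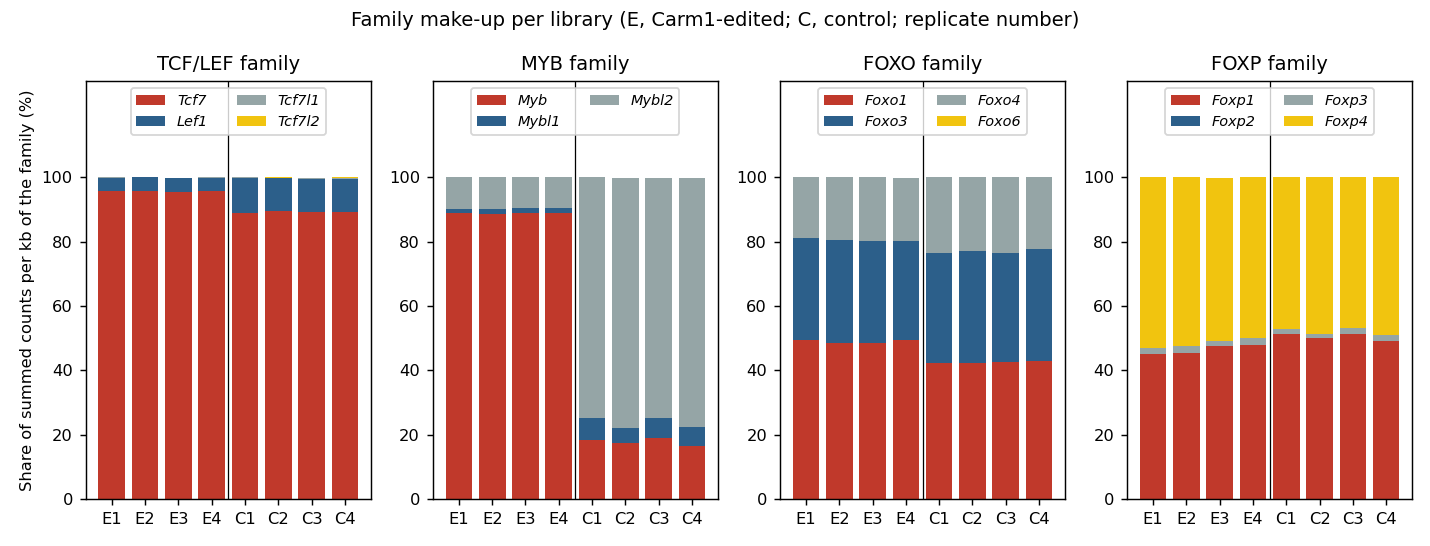
Share of each gene in the summed counts per kb of its family (y axis, %) in each Carm1-edited library (E1 to E4) and each control library (C1 to C4). Myb makes up 88.9% of its family in Carm1-edited libraries and 17.7% in control libraries, while the shares of Tcf7, Foxo1 and Foxp1 differ by 6.53, 6.46 and -3.95 percentage points.

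Of the 11 tested cofactors through which TCF1 and LEF1 act, 5 were called higher, 4 lower and 2 not called, near the 44.5% higher and 43.2% lower of all tested genes, and the median log2 fold change was 0.14. The counts were 8 higher with upper-quartile factors and 2 higher and 9 lower with T cell marker scaling. Tle2, of the Groucho corepressor genes, had 9.18 ± 0.698 CPM in Carm1-edited and 0.630 ± 0.209 CPM in control libraries, 14.4-fold higher (edgeR, adjusted p = 3.7e-27). Tle6, of the same family, was 3.91-fold higher at 2.68 ± 0.415 against 0.683 ± 0.0746 CPM. The abundant Tle3 was lower, at 158 ± 4.24 CPM in Carm1-edited and 242 ± 2.30 CPM in control libraries (1.53-fold). Ctbp1, a corepressor that binds TCF factors, was lower by 1.79-fold at 184 ± 8.53 against 331 ± 8.21 CPM. Ctnnb1, which encodes the coactivator β-catenin, had 264 ± 1.86 CPM in Carm1-edited and 295 ± 3.09 CPM in control libraries, called lower by 1.12-fold, but was not lower with upper-quartile factors (log2 fold change 0.06) or library totals (0.001). Of 7 Wnt feedback genes, only 3 had counts enough to test. Rnf43 was higher (8.18 ± 0.622 against 2.75 ± 0.228 CPM) and Znrf3 was lower (15.0 ± 0.599 against 32.6 ± 1.61 CPM), and both encode ubiquitin ligases that remove Wnt receptors. Axin2, the most used readout of Wnt signalling, had 15.9 ± 1.16 CPM in Carm1-edited and 14.8 ± 0.575 CPM in control libraries and was not called (edgeR, adjusted p = 0.060). It was called higher with upper-quartile factors (log2 fold change 0.32), library totals (0.26), a filter of 5 CPM (0.20) and without Carm1-edited replicate 1 (0.15) or control replicate 2 (0.12), and lower with T cell marker scaling (-0.36).

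Of 9 genes that accompany TCF1 in stem-like and memory CD8 T cells, 5 were called higher and 4 lower, where 44.5% and 43.2% of all tested genes were. Their median log2 fold change was 0.58. Cxcr5, the follicle-homing chemokine receptor gene, had 46.6 ± 1.09 CPM in Carm1-edited and 3.31 ± 0.185 CPM in control libraries, 14.0-fold higher (edgeR, adjusted p = 2.6e-41). The costimulatory receptor genes Cd27 (462 ± 3.33 against 141 ± 0.757 CPM) and Cd28 (147 ± 3.27 against 65.7 ± 2.41 CPM) were 3.28-fold and 2.24-fold higher. Id3, which encodes an inhibitor of E proteins, was 2.16-fold higher and Slamf6, a surface marker of stem-like cells, was higher at 152 ± 3.89 against 101 ± 0.424 CPM. Eomes, the T-box factor gene of central memory cells, was 9.73-fold lower, at 17.7 ± 1.07 CPM in Carm1-edited and 173 ± 4.71 CPM in control libraries (edgeR, adjusted p = 2.0e-44). Xcl1, a chemokine gene used to mark stem-like cells, was 3.30-fold lower at 3.40 ± 0.178 against 11.2 ± 0.264 CPM. Il6st, which encodes the shared receptor chain gp130, was 2.48-fold lower, and Tnfsf8, which encodes CD30 ligand, was 1.28-fold lower. These calls had the same direction under each scaling.

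Myb (ENSMUSG00000019982, chr10:21124935-21160984, minus strand) encodes c-MYB, a factor of thymocytes and of self-renewing memory T cells. It had 157, 160, 160 and 161 CPM in the Carm1-edited libraries, against 9.25, 9.14, 9.74 and 8.65 CPM in the control libraries. The groups did not overlap, with counts of 6409 to 6655 against 317 to 365. The log2 fold change was 4.12 ± 0.033 (edgeR, adjusted p = 4.9e-49), from 3.65 to 4.33 under the alternatives, and 240 of the 14970 tested genes (1.60%) had a larger one. Its RefSeq promoter window (chr10:21160935-21161234, minus strand) holds the forkhead motif on the opposite strand, so that it reads TGTTTAC, in capitals, beginning 33 bases after the start.
Myb window: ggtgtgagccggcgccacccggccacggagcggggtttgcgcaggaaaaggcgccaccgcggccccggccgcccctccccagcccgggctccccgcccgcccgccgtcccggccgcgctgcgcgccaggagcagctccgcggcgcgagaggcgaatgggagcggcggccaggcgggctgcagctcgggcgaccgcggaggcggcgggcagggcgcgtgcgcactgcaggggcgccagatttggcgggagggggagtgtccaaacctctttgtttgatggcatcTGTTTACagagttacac

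The MYB family changed its make-up. Mybl2, which encodes the B-MYB of dividing cells, was 2.27-fold lower, with 9.05 ± 0.206 CPM in Carm1-edited and 20.6 ± 0.892 CPM in control libraries (edgeR, adjusted p = 6.9e-24). Mybl1, best known from the germ line, had 1.54 ± 0.173 CPM in Carm1-edited and 1.87 ± 0.285 CPM in control libraries and was just short of a call (edgeR, adjusted p = 0.051). It was called lower with RLE factors (adjusted p = 0.040), with no filter (0.045), without Carm1-edited replicate 4 (0.025) or control replicate 2 (0.011), and with T cell marker scaling (7.6e-06). No other alternative called it, and its log2 fold change ran from -0.75 to -0.07 under the alternatives. Myb made up 88.9 ± 0.18% of the summed counts per kb of the 3 genes in Carm1-edited and 17.7 ± 1.1% in control libraries (exact permutation p = 0.0286, 0.0327 adjusted over the 16 measures), and Mybl2 made up 9.72% and 76.3%. The leading MYB gene was therefore Myb in each Carm1-edited library and Mybl2 in each control library. The genes closest to Myb in pattern over the 8 libraries, by the root mean square difference of log2 CPM centred on each gene, were Dntt and Klrd1 among 9423 compared. Dntt, which encodes the terminal transferase of immature lymphocytes, had 151 ± 3.74 CPM in Carm1-edited and 8.70 ± 0.382 CPM in control libraries. Klrd1, which encodes the CD94 receptor chain, had 437 ± 16.0 and 25.9 ± 1.07 CPM in the same order.

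Bcl6 (ENSMUSG00000022508, chr16:23965052-23988852, minus strand) encodes a zinc finger repressor that specifies follicular helper T cells and favours memory over effector CD8 T cells. It had 42.4, 45.3, 44.0 and 43.6 CPM in the Carm1-edited libraries, against 1.65, 1.74, 1.71 and 2.02 CPM in the control libraries. The control level rests on 63 to 74 counts per library and the Carm1-edited level on 1740 to 1883, where 3 counts come to at most 0.0799 CPM. The log2 fold change was 4.62 ± 0.061 (edgeR, adjusted p = 5.7e-42), the largest of the 8, from 4.15 to 4.84 under the alternatives. Of the 14970 tested genes, 152 (1.02%) had a larger one. The 1st RefSeq window of Bcl6 (chr16:23988803-23989102), at the outer end of the gene, held none of the motifs searched. The 2nd (chr16:23981234-23981533, minus strand), inside the gene, holds a match to TTCCTNGAA, the motif of BCL6 itself. The match begins 168 bases before the annotated start of this window and is in capitals below.
Bcl6 window: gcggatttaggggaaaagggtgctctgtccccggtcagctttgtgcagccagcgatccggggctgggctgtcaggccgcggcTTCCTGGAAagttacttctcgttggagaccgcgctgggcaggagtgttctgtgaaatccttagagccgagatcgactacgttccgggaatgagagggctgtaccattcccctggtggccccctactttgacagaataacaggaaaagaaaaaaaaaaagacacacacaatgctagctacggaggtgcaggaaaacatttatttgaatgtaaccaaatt
These letters were in 1 of the 19 windows of the 8 genes and in 1.59% of the 32851 windows, on either strand. They overlap the palindromic form that STAT factors bind, so the letters alone do not separate the proteins. The relative Bcl6b was close to absent, with 14 counts over the 4 Carm1-edited and 13 over the 4 control libraries. Bcl6 made up 99.6 ± 0.20% of the summed counts per kb of the pair in Carm1-edited and 92.0 ± 5.4% in control libraries (exact permutation p = 0.0286, adjusted 0.0327), a difference of 7.67 percentage points, or of 4.48 without division by length.

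Of 5 tested genes of the corepressors that BCL6 recruits, 2 were higher, 2 lower and 1 not called, again close to the shares over all tested genes (44.5% and 43.2%). The median log2 fold change was 0.02, while with T cell marker scaling 1 was higher and 4 lower. Tbl1xr1 had 83.1 ± 3.13 CPM in Carm1-edited and 54.2 ± 1.55 CPM in control libraries (1.53-fold higher). Hdac3, the histone deacetylase gene of the complex, had 63.8 ± 1.10 and 83.9 ± 1.87 CPM in the same order (1.32-fold lower). Bcor had 102 ± 2.76 CPM in Carm1-edited and 101 ± 2.72 CPM in control libraries and was not called. It was called higher with upper-quartile factors (log2 fold change 0.24), library totals (0.18) and a filter of 5 CPM (0.11), and lower with T cell marker scaling (-0.45). The genes closest to Bcl6 in pattern were Bmf, which encodes a cell death activator, at 100 ± 2.51 against 3.93 ± 0.0744 CPM, and Ebi3, a cytokine subunit gene, at 24.2 ± 0.309 against 0.863 ± 0.125 CPM.

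Bach2 (ENSMUSG00000040270, chr4:32238804-32586108, plus strand) encodes a repressor that holds back effector genes by occupying sites used by AP-1 factors. It had 67.6, 70.5, 71.4 and 68.9 CPM in the Carm1-edited libraries, against 68.4, 63.6, 63.5 and 66.3 CPM in the control libraries. The groups overlapped, since control replicate 1 lay above Carm1-edited replicate 1. The log2 fold change was 0.09 ± 0.028 (edgeR, adjusted p = 0.0038). Without control replicate 3 it was 0.06 and did not pass (edgeR, adjusted p = 0.061), and with T cell marker scaling it was -0.38. With upper-quartile factors it was 0.30 and with library totals 0.25, both called higher. Its relative Bach1 had 43.8 ± 1.69 CPM in Carm1-edited and 39.0 ± 0.616 CPM in control libraries, a log2 fold change of 0.17 with TMM factors and -0.30 with T cell marker scaling. Bach2 made up 49.7 ± 0.84% of the summed counts per kb of the pair in Carm1-edited and 51.0 ± 0.97% in control libraries, a difference that did not pass (exact permutation p = 0.114, adjusted 0.122). The genes of its 3 small MAF partners, with which BACH2 binds DNA, were all called lower, as were 43.2% of all tested genes. Mafk was 1.73-fold lower (65.3 ± 1.57 against 113 ± 1.86 CPM), Mafg 1.55-fold lower (34.2 ± 0.529 against 53.2 ± 1.82 CPM) and Maff 2.23-fold lower (8.43 ± 0.899 against 18.9 ± 0.729 CPM). For these 3 the direction was the same under each scaling.

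Foxo1 (ENSMUSG00000044167, chr3:52268336-52353221, plus strand) encodes the forkhead factor that maintains homing and survival genes in naive and memory T cells. It had 186, 188, 191 and 190 CPM in the Carm1-edited libraries, against 107, 104, 109 and 109 CPM in the control libraries. The groups did not overlap, and the log2 fold change was 0.82 ± 0.024 (edgeR, adjusted p = 6.7e-30), from 0.35 to 1.03 under the alternatives. Foxo3 (107 ± 2.03 against 75.7 ± 0.906 CPM) was called higher by 1.41-fold and Foxo4 (30.2 ± 1.20 against 23.4 ± 0.854 CPM) by 1.29-fold, but with T cell marker scaling Foxo3 was not called (log2 fold change 0.03) and Foxo4 was lower (-0.10). Foxo6 had 0 counts. Foxo1 made up 48.9 ± 0.42% of the family's summed counts per kb in Carm1-edited and 42.5 ± 0.26% in control libraries (exact permutation p = 0.0286, adjusted 0.0327).

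Of 6 tested genes that FOXO1 controls in T cell homing and survival, 2 were higher and 4 lower, against 44.5% higher and 43.2% lower over all tested genes, with a median log2 fold change of -0.31. Il7r, which encodes the interleukin-7 receptor, was 3.32-fold higher (180 ± 5.63 against 54.2 ± 1.07 CPM) and S1pr1, a receptor for egress from lymphoid tissue, 1.97-fold higher (320 ± 3.51 against 162 ± 1.92 CPM). Ccr7, the lymph node homing receptor gene, was 1.28-fold lower (464 ± 7.73 against 592 ± 6.71 CPM). Il6ra was 11.1-fold lower (5.68 ± 0.379 against 63.1 ± 1.04 CPM). Klf2, a factor gene upstream of S1pr1, had 149 ± 14.3 and 180 ± 8.52 CPM, called lower with TMM factors but not with upper-quartile factors (log2 fold change -0.06) or library totals (-0.12).

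The targets of FOXO factors in many cell types, concerned with growth arrest, stress and metabolism, were nearly all higher. Of 14 tested, 13 were called higher, 0 were called lower and Cited2 was not called, with a median log2 fold change of 1.40, against 44.5% called higher and a median of 0.02 over all tested genes. With T cell marker scaling 11 were higher and 2 lower, namely Bcl2l11 and Cited2. Txnip, which encodes an inhibitor of glucose uptake, had 1409 ± 23.1 CPM in Carm1-edited and 257 ± 2.78 CPM in control libraries, 5.48-fold higher (edgeR, adjusted p = 1.7e-47). Pik3ip1, a phosphoinositide 3-kinase inhibitor gene, was 4.90-fold higher (302 ± 5.34 against 61.7 ± 1.27 CPM) and Fbxo32, the ubiquitin ligase gene of muscle atrophy, 4.24-fold higher (45.4 ± 1.28 against 10.7 ± 0.641 CPM). The growth arrest genes Cdkn1b (2.65-fold), Ccng2 (2.89-fold) and Rbl2 (1.93-fold) were higher as well. Cited2 had 43.6 ± 1.93 CPM in Carm1-edited and 43.7 ± 0.975 CPM in control libraries. The list was chosen with earlier results of these data known, and whether FOXO1 itself acted on any of these genes was not tested.

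**Figure D4:**
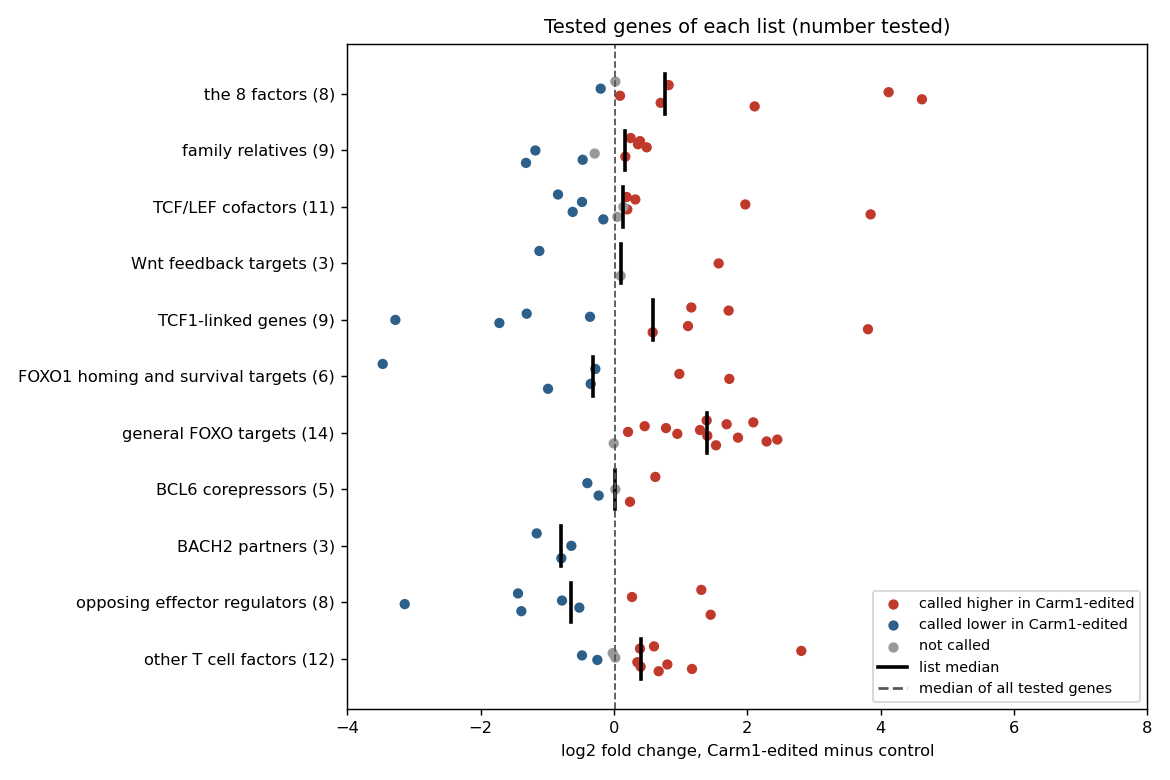
Log2 fold change, Carm1-edited minus control (x axis), of every tested gene of the 8 factors and 10 related lists (rows, number tested in brackets), coloured by call, with each list's median (black bar) and the median of all tested genes (dashed). The general FOXO targets have the highest median (1.40), and most other lists spread to both sides of 0.

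Foxp1 (ENSMUSG00000030067, chr6:98925338-99522721, minus strand) encodes a forkhead factor that keeps naive T cells quiescent. It had 195, 198, 210 and 207 CPM in the Carm1-edited libraries, against 200, 197, 198 and 202 CPM in the control libraries. The groups overlapped and the gene was not called, with a log2 fold change of 0.02 ± 0.024 (edgeR, adjusted p = 0.35). It was called higher with upper-quartile factors (0.24), library totals (0.18) and a filter of 5 CPM (0.12), and lower with T cell marker scaling (-0.44). Foxp4 had 80.6 ± 2.33 CPM in Carm1-edited and 68.0 ± 3.16 CPM in control libraries, higher with TMM factors (log2 fold change 0.25) and lower with T cell marker scaling (-0.22). Foxp3, the regulatory T cell factor gene, stayed low at 2.43 ± 0.298 against 1.86 ± 0.235 CPM (called higher, but -0.08 and not called with T cell marker scaling), and Foxp2 had 1 count or less in each library. Within libraries, Foxp1 made up 46.5 ± 1.5% of the family's summed counts per kb in Carm1-edited and 50.4 ± 1.0% in control libraries (exact permutation p = 0.0286, adjusted 0.0327). Foxo1 gained on Foxp1: the log2 ratio of counts per kb was 0.56 ± 0.037 in Carm1-edited and -0.23 ± 0.025 in control libraries (exact permutation p = 0.0286, adjusted 0.0327). The change of sign rests on the division by length, since in raw counts the log2 ratio was -0.10 ± 0.037 in Carm1-edited and -0.90 ± 0.025 in control libraries.

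Satb1 (ENSMUSG00000023927, chr17:51736187-51833290, minus strand) encodes a chromatin organiser of thymocytes and T cells. It had 489, 492, 504 and 498 CPM in the Carm1-edited libraries, against 577, 571, 565 and 572 CPM in the control libraries. It was the only one of the 8 called lower, with a log2 fold change of -0.20 ± 0.021 (edgeR, adjusted p = 1.2e-11) and no overlap between groups. The call was lost with library totals (-0.04, edgeR, adjusted p = 0.055) and with upper-quartile factors (0.01, adjusted p = 0.62), and the value was -0.67 with T cell marker scaling. MYB motifs (on either strand, the forms TAACGG and also TAACTG, beside the forms CAACGG and also CAACTG) were in 6 of the 19 RefSeq windows of the 8 genes, all of Satb1, Foxo1 or Foxp1, and in 28.3% of all windows. The 4th and 5th windows of Satb1 overlap and hold the same TAACGG. The TCF/LEF motif ATCAAAG (3.73% of all windows) and the BACH and AP-1 motif TGANTCA (7.81%) were in none of the 19.

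Against the 8 genes stand regulators that drive effector or terminal differentiation, with 5 of 8 called lower and 3 higher, beside 43.2% lower and 44.5% higher over all tested genes, with a median log2 fold change of -0.65. Zeb2, the gene of a factor of terminal effector cells, had 0.624 ± 0.0538 CPM in Carm1-edited and 5.52 ± 0.348 CPM in control libraries, 8.81-fold lower (edgeR, adjusted p = 3.0e-25). Bhlhe40, Id2 and Irf4 were lower by 2.72-, 2.62- and 1.72-fold, and Tbx21, which encodes T-bet, by 1.43-fold (56.4 ± 1.71 against 80.6 ± 2.22 CPM). Prdm1, which encodes BLIMP1, a repressor that opposes BCL6 and TCF1, was 2.73-fold higher, at 11.6 ± 0.476 CPM in Carm1-edited and 4.25 ± 0.399 CPM in control libraries (edgeR, adjusted p = 2.4e-22). Stat4, which relays interleukin-12 signals, was 2.47-fold higher. Batf, an AP-1 factor gene, was 1.20-fold higher with TMM factors and lower with T cell marker scaling (log2 fold change -0.20).

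Pairs of opposing genes were also set against each other within each library, as log2 ratios of counts per kb, which no scaling between libraries can move. Tcf7 over Tbx21 was 5.01 ± 0.045 in Carm1-edited and 2.39 ± 0.037 in control libraries, and Tcf7 over Prdm1 was 8.43 ± 0.051 and 7.78 ± 0.12. Myb over Zeb2 differed most, at 9.16 ± 0.13 in Carm1-edited and 1.89 ± 0.13 in control libraries. Bcl6 over Prdm1 changed sign, at 1.63 ± 0.022 in Carm1-edited and -1.54 ± 0.19 in control libraries, so Bcl6 was the more abundant of the pair per kb in all 4 Carm1-edited libraries and Prdm1 in all 4 control libraries. Id3 over Id2 also changed sign, at 1.81 ± 0.040 and -0.69 ± 0.038. Both pairs changed sign in raw counts as well. Bach2 over Prdm1 went the other way, at 1.73 ± 0.033 in Carm1-edited and 3.09 ± 0.13 in control libraries. For each of these 6 ratios the exact two-sided permutation p was 0.0286, the smallest possible here, and 0.0327 adjusted over the 16 measures. This p is reached whenever the 2 groups do not overlap, as held for 83.4% of single tested genes. The share among arbitrary pairs of genes was not computed.

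**Figure D5:**
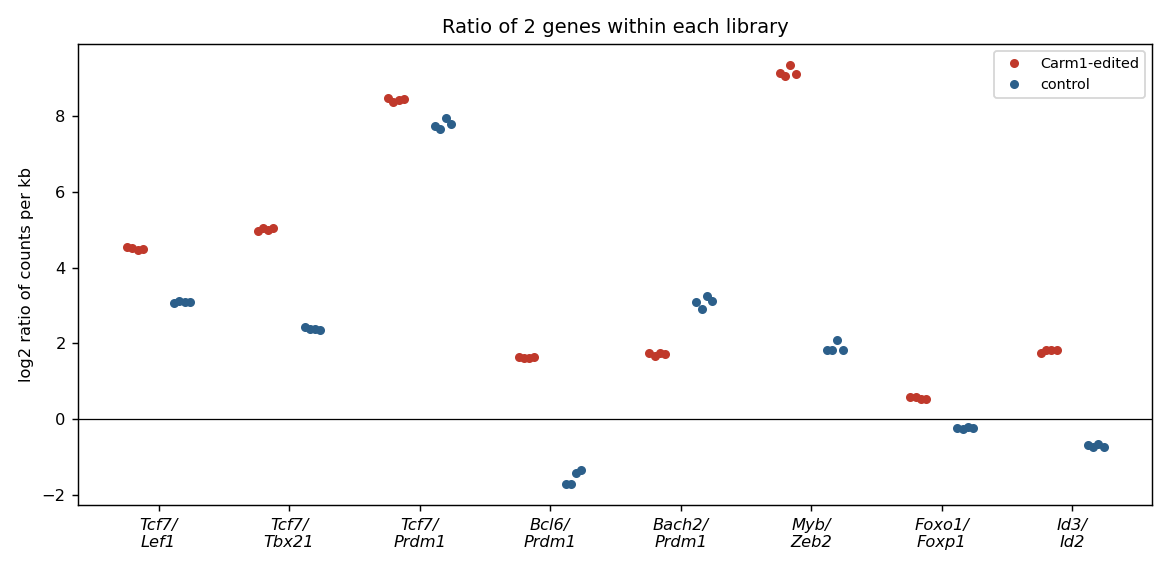
Log2 ratio of the counts per kb of 2 genes within a library (y axis) for 8 pairs (x axis), 1 point per library, Carm1-edited (red) left of control (blue). Bcl6 over Prdm1, Foxo1 over Foxp1 and Id3 over Id2 are above 0 in Carm1-edited and below 0 in control libraries (in raw counts Foxo1 over Foxp1 is below 0 in both), and Bach2 over Prdm1 is lower in Carm1-edited libraries.

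Of 12 other factor genes of T cell identity, 8 were called higher, 2 lower and 2 not called, beside 44.5% higher and 43.2% lower over all tested genes. Their median log2 fold change was 0.40, and with T cell marker scaling 5 were higher and 6 lower. Zbtb7b, which encodes ThPOK, the factor of the helper lineage, stood out at 33.7 ± 1.20 CPM in Carm1-edited and 4.82 ± 0.152 CPM in control libraries, 7.00-fold higher (edgeR, adjusted p = 1.1e-36). Runx3, which encodes its opponent in CD8 T cells, was 1.75-fold higher (331 ± 10.7 against 189 ± 6.98 CPM). Cd4 remained low, at 0.782 ± 0.150 CPM in Carm1-edited and 0.168 ± 0.0374 CPM in control libraries, beside Cd8a at 1973 ± 5.32 and 1573 ± 13.6 CPM. Gata3 was 2.25-fold higher, Bcl11b 1.60-fold higher and Tcf12 1.52-fold higher, and Ikzf1 (1.19-fold) and Zeb1 (1.39-fold) were lower, the call for Ikzf1 being lost with upper-quartile factors.

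The other genes that stayed closest to each factor in pattern were Grap and Adamts10 for Tcf7, Lnpep and Stk4 for Lef1, Arl6ip1 and Smap2 for Foxo1, and Sap130 and Jarid2 for Satb1. For Bach2 they were Hdac4 and Wac, and for Foxp1 Numa1 and Crcp. The root mean square difference over the 8 libraries was 0.0097 to 0.029 on the log2 scale for these, against 0.066 to 0.11 for the neighbours of Myb and Bcl6. With only 2 groups of libraries, this measure finds genes with a similar fold change.

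Several genes share the ground of the 8, and the library kit does not mark strand, so reads of overlapping exons cannot be told apart. A630014C17Rik, antisense within Tcf7 but with no exonic base in common, had 11.7 ± 0.819 CPM in Carm1-edited and 2.07 ± 0.223 CPM in control libraries, a log2 fold change of 2.49 ± 0.082 beside the 2.11 of Tcf7. Gm43352, which shares 1208 exonic bases with Lef1 on the opposite strand, had 10.5 ± 1.13 and 4.10 ± 0.298 CPM in the same order. Within Satb1, on its strand and with no shared exonic base, E430014B02Rik, 5830444F18Rik and Gm37248 had log2 fold changes of 1.78, 2.92 and 1.81, all called higher, while Satb1 itself was lower. All 3 were at or below 1.71 CPM in every library. The counts of the genes lying within or across the 8 were at most 3.91% of those of the factor gene. At Carm1, Yipf2 shares 1025 exonic bases on the opposite strand and had 623 to 722 counts in Carm1-edited and 157 to 198 in control libraries.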

How the data were processed

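RNA of 4 Carm1-edited and 4 control libraries was prepared with a poly(A) kit that does not mark strand, from RNA of integrity above 9.5, and sequenced with paired 150 bp reads, per the labels' protocols. The deposited values are whole-number counts per gene, which the authors made with RSEM, per the labels' protocols, on build mm10, per the submitters' processing notes. RSEM can give fractional estimates and the files hold none, and no source used here says how they became whole. The annotation, strand setting and versions were not given in these sources either. The deposited gene length is the summed length of the gene's annotated exons, per the file headers. How reads common to similar genes were assigned is not stated.

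Symbols came from GENCODE M21 of GRCm38, the assembly of mm10, and were found for 48970 of 49315 identifiers. Tle5 carries its older symbol Aes there. Genes lacking one took 0.0269% to 0.0535% of all counts. Genes were kept by edgeR's filterByExpr, scaled with TMM factors and fitted over all 14970 genes kept with the robust quasi-likelihood test of edgeR 4.0.16 in R 4.3.3 (two-sided). Standard errors were derived from the fold change and its F statistic. CPM per kb is CPM divided by the deposited length. A count of 3 came to 0.0724 to 0.0799 CPM and covers counting error only. Ratios and family shares were taken within libraries and compared by exact permutation tests (scipy 1.17.1), with p-values adjusted over 16 measures. Of the list genes and measures, 1 of the measures and a few genes are not reported here but stay in the sums, counts and adjustment. Promoter windows are RefSeq's of GRCm38.p6, and motif matches were searched on both strands. The fit was first tested on simulated data.

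Alternatives were RLE and upper-quartile factors, library totals, T cell marker scaling, no filter, a filter of 5 CPM in 4 libraries, DESeq2 1.42.0, limma-voom (limma 3.58.1), a replicate block and leaving out each library, and for ratios raw counts without the length. Replicates differed by 1.45 to 13.5 in chi-square per degree of freedom, so none was counted as a copy. The genes, lists, motifs and tests were chosen with earlier results of these data known. Named genes were the 8 factors, Carm1, genes of the lists, genes overlapping a factor, and the 2 genes nearest to each factor in pattern with a mean of at least 5 CPM.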

Additional observations from a re-analysis of the deposited data

Results flagged for a closer look

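In each group of 4 libraries, the gap between an end library and its nearest neighbour was divided by the range of the group, and 12 of 236 groups passed Dixon's 95% limit, where chance gives about 1 in 20.

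None was a group of the 8 factor genes themselves, and 1 involved a factor gene in a ratio. The log2 ratio of Myb over Zeb2 was 2.09 in control replicate 3, against 1.82 to 1.84 in the other control libraries (gap over range 0.896). In the Carm1-edited libraries, one library stood apart for Tcf7l2 (0.670 CPM, the others 0.433 to 0.451, gap over range 0.922), Cdkn1b (387 CPM, the others 367 to 368, 0.954), Grap (287 CPM, the others 295 to 297, 0.837), Stk4 (436 CPM, the others 458 to 460, 0.895) and Pmel (11.8 CPM, the others 12.9 to 13.0, 0.910). In the control libraries, one stood apart for Foxo3 (77.1 CPM, the others 75.2 to 75.4, 0.893), Fbxo32 (9.73 CPM, the others 10.9 to 11.1, 0.855), Batf (37.7 CPM, the others 34.7 to 34.8, 0.940) and Runx3 (200 CPM, the others 185 to 187, 0.844). The same held for 2 genes inside Satb1, 5830444F18Rik (1 count in 1 control library and 3 in each of the others, 0.992) and E430014B02Rik (6 counts in 1, 16 or 17 in the others, 0.895). Apart from Tcf7l2, each of these genes had the same call when any 1 library was left out.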

How the results depend on the processing

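Of the results under all alternatives, 2151 kept their direction and call or stayed close in value, 31 changed sign, 31 moved, 27 lost a call and 27 gained one. The rises of Bcl6, Myb, Tcf7, Foxo1 and Lef1 passed under every alternative run, and the calls of the other 3 factor genes depended on the scaling between libraries. For all results below, the cause was not tested beyond what each setting does by construction.

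With upper-quartile factors or library totals, 0 of the 8 factor genes were lower, 2 Wnt feedback genes were higher and 1 BCL6 corepressor was lower. With upper-quartile factors, 8 TCF/LEF cofactors were higher and 1 other T cell factor was lower. Of the genes named, log2 fold changes then turned for Satb1 (0.01), Ctnnb1 (0.06), Cited2 (0.21), Sap130 (0.01) and Jarid2 (0.01), and with library totals for Ctnnb1 (0.001) and Cited2 (0.16).

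With T cell marker scaling, 4234 genes were called higher and 3 of the 8 factor genes lower. Lists then had 0 family relatives higher and 7 lower, 2 TCF/LEF cofactors higher and 9 lower, 2 Wnt feedback genes lower, 2 general FOXO targets lower, 1 BCL6 corepressor higher and 4 lower, and 5 other T cell factors higher and 6 lower. Among the genes named, log2 fold changes turned for Bach2 (-0.38), Foxp1 (-0.44), Bach1 (-0.30), Foxo4 (-0.10), Foxp4 (-0.22), Foxp3 (-0.08), Cd8a (-0.14), Tle5 (-0.32), Axin2 (-0.36), Bcl2l11 (-0.26), Ncor1 (-0.23), Bcor (-0.45), Batf (-0.20), Ets1 (-0.12), Hdac4 (-0.39), Wac (-0.39), Numa1 (-0.44) and Crcp (-0.44). A further 8 of the 88 tested factor and list genes, not named, turned as well.

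With no filter, 2 Wnt feedback genes were higher and 3 lower, and values near 0 turned for Foxp1 (-0.002), Bcor (-0.005) and Crcp (-0.002). The filter of 5 CPM tests fewer genes and had TMM factors computed again on the genes kept, with a median shift of 0.09. With that filter, 1 family relative was lower, 2 Wnt feedback genes were higher and Cited2 was at 0.09. Leaving out 1 library gave 1 to 2 Wnt feedback genes higher and 1 to 2 lower. Near 0, Cited2 lay between -0.03 and 0.02 (0.02 without Carm1-edited replicate 4) and Bcor between -0.01 (without control replicate 3) and 0.03. Bach2 was at 0.06, no longer called, without control replicate 3.

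Same-numbered libraries of the groups did not deviate together (correlations of -0.0848 to -0.0509), so they share only a number. With a replicate block, 6611 genes were higher and 6420 lower, the calls of the 8 factor genes were kept, and Tcf7l2 (edgeR, adjusted p = 0.058) and Klf2 (0.069) lost theirs.

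Depth limits rare relatives such as Bcl6b, which had too few counts to test. Technical replicates leave out the variation between mice or cultures, which these data cannot give. With 1 library left out, 3 against 4 libraries allow no permutation p below 0.0571. Ratios and shares within a library do not depend on the scaling, but their levels depend on the deposited lengths. For log2 ratios the difference between groups does not, while for shares it does.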
